A study of Homo sapiens with 22 samples.

Results

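The regions described here are stretches of open chromatin in WM989 melanoma cells with peaks in each of the 3 EGFR-high libraries but in none of the 3 NGFR-high ones. Distinct peaks of all 12 ATAC-seq libraries were merged where they shared at least 1 base, and merged regions with a peak in at least 3 libraries were kept. The members were selected on the peak calls of 6 libraries, while the peaks of all 12 set the bounds of the regions. Of 152014 such regions, 559 (0.368%) met the rule, and they are called EGFR-high regions below. The opposite pattern, with a peak in 3 NGFR-high and 0 EGFR-high libraries, held for 2657 regions (1.75%). Both counts describe the rule and were not tested. Merging the 6 libraries of the rule alone gave 605 regions of this pattern.

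WM989 is a human melanoma cell line with a BRAF mutation, in which a rare primed state precedes resistance to targeted therapy. Live cells were stained for EGFR, a receptor tyrosine kinase, and NGFR, a neurotrophin receptor that also marks neural crest cells. Stained cells were collected as EGFR-high, as NGFR-high or as EGFR/NGFR-high. The study's methods give a cut of the top 0.2% for sorting on EGFR and NGFR, without a separate cut for each sort. The other sort is labelled Mix. The study's methods describe the remaining chromatin sort as negative for both markers and elsewhere use mixed for unselected live cells, so Mix is taken here, without certainty, to be the marker-negative sort. Each sort had 3 libraries of 10000 cells, and Omni-ATAC was done right after sorting, without drug. All 12 libraries come from 1 line, and the labels do not say whether the 3 sorts of a kind came from separate cultures, so the spread between libraries may be technical. A sort is a mixture, so a weaker peak can mean fewer open cells or less open cells, and these cannot be told apart.

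ATAC-seq uses a transposase that cuts accessible DNA, so that promoters, enhancers and other sites held free of nucleosomes give local pileups of reads. Fold enrichment is the height of a peak over its local background, as the peak caller wrote it, and a library without a peak in a region is listed at 0. Promoters tend to be open in most cell types. Distal enhancers differ more between cell states and are bound by combinations of factors, which in melanoma include SOX10, MITF, TFAP2, TEAD and AP-1 proteins.

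The libraries held between 148575 and 180941 distinct peaks, with 149008 to 166985 in EGFR-high and 159891 to 171428 in NGFR-high libraries. EGFR/NGFR-high replicate 1 had the most peaks, and it covered 88.8% of all regions against 71.2% to 82.2% in the other 11 libraries. Its values stand apart in several results below, and the main comparisons of EGFR/NGFR-high with Mix libraries are also given without it. The starts of MITF, SOX10, MLANA, PMEL, TYR and DCT, genes of the melanocyte lineage, had a peak in 12 of 12 libraries. Starts of the leukocyte genes PTPRC and CD3E and of the endothelial genes PECAM1 and CDH5 had none in any library. Among genes of other lineages, EPCAM, KRT8 and COL1A1 had a peak at the start in all 12 libraries, and CDH1 and DCN in 0. At the EGFR start, fold enrichment was 14.5, 14.2 and 14.2 in EGFR-high against 9.54, 9.62 and 7.05 in NGFR-high libraries. At the start of NGFR it was 13.7 in each EGFR-high library against 29.4, 22.7 and 22.1 in NGFR-high libraries. Neither start was an EGFR-high region, since both had peaks in all 12 libraries.

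The sequence around the summit is shown for 5 of the regions of highest EGFR-high enrichment, the FMO1 and FMO4 ones because they lie close together, as 200 bases of the forward strand of hg38. Letters matching 1 of 8 motifs that were searched on both strands are in capitals, and these motifs are spelled out further on. The first window and the FMO1 window hold none of them. The CALU window holds the TEAD letters, the EQTN window those of TFAP2 and SOX, and the FMO4 window those of RUNX.
MYO1E intron, chr15:59157878-59158077: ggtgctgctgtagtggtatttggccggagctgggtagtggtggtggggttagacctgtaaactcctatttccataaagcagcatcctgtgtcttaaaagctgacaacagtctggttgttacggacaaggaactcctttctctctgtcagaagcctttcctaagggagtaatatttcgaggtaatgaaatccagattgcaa
CALU intron, chr7:128755827-128756026: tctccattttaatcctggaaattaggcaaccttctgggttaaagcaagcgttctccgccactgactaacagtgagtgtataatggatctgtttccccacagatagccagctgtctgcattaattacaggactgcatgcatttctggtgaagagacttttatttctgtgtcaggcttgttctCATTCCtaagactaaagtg
EQTN intron, chr9:27292741-27292940: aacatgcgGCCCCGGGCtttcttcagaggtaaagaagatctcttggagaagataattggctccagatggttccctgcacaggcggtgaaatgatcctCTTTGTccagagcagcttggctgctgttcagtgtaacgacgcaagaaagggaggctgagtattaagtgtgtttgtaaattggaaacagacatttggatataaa
FMO1 intron, chr1:171264007-171264206: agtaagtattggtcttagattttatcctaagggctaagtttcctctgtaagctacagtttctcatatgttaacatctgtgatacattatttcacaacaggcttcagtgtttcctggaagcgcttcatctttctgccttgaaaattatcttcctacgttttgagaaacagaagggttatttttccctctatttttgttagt
Upstream of FMO4, chr1:171292960-171293159: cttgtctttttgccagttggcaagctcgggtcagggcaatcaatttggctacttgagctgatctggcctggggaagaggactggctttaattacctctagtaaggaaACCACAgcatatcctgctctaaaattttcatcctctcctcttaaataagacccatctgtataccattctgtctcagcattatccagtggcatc

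EGFR-high regions were narrow and weakly enriched. Their width ranged from 157 to 929 bases with a median of 324, against 471 over all regions and 330 in the opposite set. The mean fold enrichment over the 3 EGFR-high libraries ranged from 3.23 to 16.0 with a median of 4.79, and 90% of the regions lay between 3.83 and 6.64. The lowest fold enrichment of any peak was 2.84 to 2.99 in these 3 libraries. Most of these peaks thus stood little above the level at which a peak was called. The 3 libraries gave similar heights, with a median of 1.35 for the highest over the lowest, and 11 regions reached a fold enrichment of 10 in any EGFR-high library. Just outside the rule, 1456 regions had a peak in 3 EGFR-high and 1 NGFR-high library, with a median EGFR-high fold enrichment of 5.02, and 2160 had one in 2 EGFR-high and 0 NGFR-high libraries.

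The set depends on the peak threshold. With only peaks of −log10 q of at least 5 in every library, 264 regions met the rule, and 57 of them were among the 559, which is 21.6% of the new set and 10.2% of the original one. With the 140000 highest peaks of each library, 713 regions met it, and 290 of them were among the 559, which is 40.7% and 51.9%. With the 50000 highest peaks, 397 regions met it and none was among the 559. In these lists, in the same order, the opposite pattern held for 3003, 1830 and 620 regions. A region named below is therefore one of this peak list, and a library listed at 0 may hold signal under the threshold.

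The highest fold enrichment lay in an intron of MYO1E, which encodes a class I myosin, at chr15:59157428-59158258. It was 21.3, 11.3 and 15.2 in the EGFR-high libraries. In EGFR/NGFR-high libraries it was 5.06, 6.14 and 6.95, and the Mix libraries were listed at 0. The second region, chr7:128755625-128756220, lay in an intron of CALU, which encodes a calcium-binding protein of the secretory pathway. It had 12.8, 8.98 and 8.32 in EGFR-high and 6.55, 6.62 and 3.97 in EGFR/NGFR-high libraries. Both were thus open in the 2 sorts named for EGFR and listed at 0 in the other 2. The rule fixed this for EGFR-high and NGFR-high, but not for EGFR/NGFR-high and Mix libraries.

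Regions 3, 4 and 5 lay near EYA1, in EQTN and in FMO1. EYA1 encodes a transcriptional coactivator and phosphatase. Near it, at chr8:71682952-71683407, fold enrichment was 14.1, 8.51 and 6.85 in EGFR-high and 5.06, 5.67 and 5.95 in EGFR/NGFR-high libraries. The EQTN region, chr9:27292650-27292975, had 10.2, 5.67 and 12.2 in EGFR-high libraries and a peak of 7.74 in EGFR/NGFR-high replicate 1. The other 2 EGFR/NGFR-high libraries were listed at 0 there. In FMO1, which encodes a flavin-containing monooxygenase, the region chr1:171263842-171264292 had 10.2, 8.98 and 7.34 in EGFR-high libraries. The EGFR/NGFR-high libraries had 6.55, 4.25 and no peak.

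The FMO1 region belonged to the tightest group of 3. A second lay in the same gene at chr1:171267352-171267827, with 6.40, 5.20 and 8.32 in EGFR-high libraries and no peak in any other library. The third lay 21123 bases upstream of FMO4, a gene of the same family, at chr1:171292812-171293235, with 7.68, 7.09 and 8.32 in EGFR-high libraries. The 3 span 29394 bases. All Mix libraries were listed at 0 in each. Regions 6 to 9 lay in introns of HIP1, SRBD1 and TNS3 and upstream of MTUS1, and each had a peak in 1 or 2 EGFR/NGFR-high libraries. None of the 10 highest regions had a peak in any Mix library, while 238 of all 559 had none, against 20222 of all 152014 regions. In the opposite set 1454 of 2657 had none. Of the 140 EGFR-high regions of highest EGFR-high fold enrichment, 68 had none, and of the 140 of lowest, 54.

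**Figure D1:**
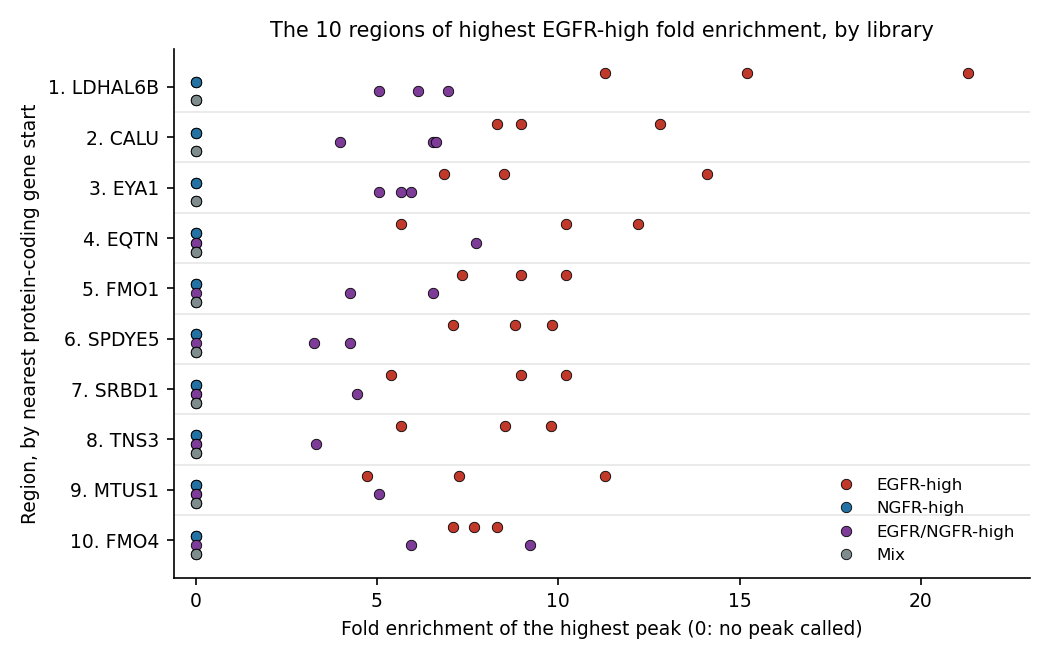
Fold enrichment (horizontal axis, 0 where no peak was called) of the 10 regions with the highest EGFR-high fold enrichment, named by the nearest protein-coding gene start; each point is 1 library and colours mark the 4 sorts. NGFR-high and Mix libraries sit at 0 in all 10, and EGFR/NGFR-high libraries mostly lie below the EGFR-high ones; EGFR-high and NGFR-high values chose the regions.

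The rule did not read the peak calls of EGFR/NGFR-high and Mix libraries, although their peaks helped to set the bounds of the regions. The state of the EGFR-high regions in these sorts was therefore compared in the regions as defined and again in regions merged without these 6 libraries. In EGFR/NGFR-high libraries 349, 239 and 219 of the 559 regions had a peak, or 62.4%, 42.8% and 39.2%. In Mix libraries it was 196, 236 and 222 regions, or 35.1%, 42.2% and 39.7%. The ranges overlapped, and EGFR/NGFR-high replicate 1 stood far above the other 5 libraries. The mean share was 48.1% ± 12.5 (SD, n = 3) in EGFR/NGFR-high and 39.0% ± 3.63 (SD, n = 3) in Mix libraries, a difference of 9.12 percentage points. An exact two-sided permutation test gave p = 0.4, where the smallest p of 3 libraries against 3 is 0.1. In the 605 regions merged from EGFR-high and NGFR-high libraries alone, an alternative added after the data were seen, 62.8%, 43.3% and 39.8% had a peak in EGFR/NGFR-high and 34.0%, 42.6% and 39.3% in Mix libraries. The difference there was 9.97 points (exact permutation p = 0.2), and 2.89 points without EGFR/NGFR-high replicate 1.

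Over all regions the same difference was 8.0 points, with 83.0% ± 5.4 and 75.0% ± 2.84 (SD, n = 3 each). The opposite set differed more, with 70.6% ± 13.2 in EGFR/NGFR-high and 26.5% ± 4.59 in Mix libraries (SD, n = 3 each). Without EGFR/NGFR-high replicate 1 the difference was 1.97 points for EGFR-high regions, 5.12 over all regions and 37.1 for the opposite set. Higher thresholds make other members, as counted above. The 264 regions that met the rule with −log10 q of at least 5 differed by 7.45 points (exact permutation p = 0.9), and by −4.23 without EGFR/NGFR-high replicate 1, where all regions of that list differed by 7.89 and 4.25. The 713 regions that met the rule with the 140000 highest peaks of each library differed by −2.01 points, and all regions of that list by 4.29. The 397 regions of the 50000 highest, a setting added after the data were seen, hold none of the 559 and differed by −11.6 points (39.8% to 41.6% in EGFR/NGFR-high and 51.4% to 53.1% in Mix libraries, exact permutation p = 0.1), where all regions of that list differed by 2.19. The original 559 read with the 140000 highest peaks, also added, had a peak in 34.2%, 23.3% and 23.4% of cases in EGFR/NGFR-high and 31.7%, 32.6% and 28.6% in Mix libraries, a difference of −4.0 points (exact permutation p = 0.4). EGFR-high regions were thus not shown to be open more often in EGFR/NGFR-high than in Mix libraries.

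**Figure D2:**
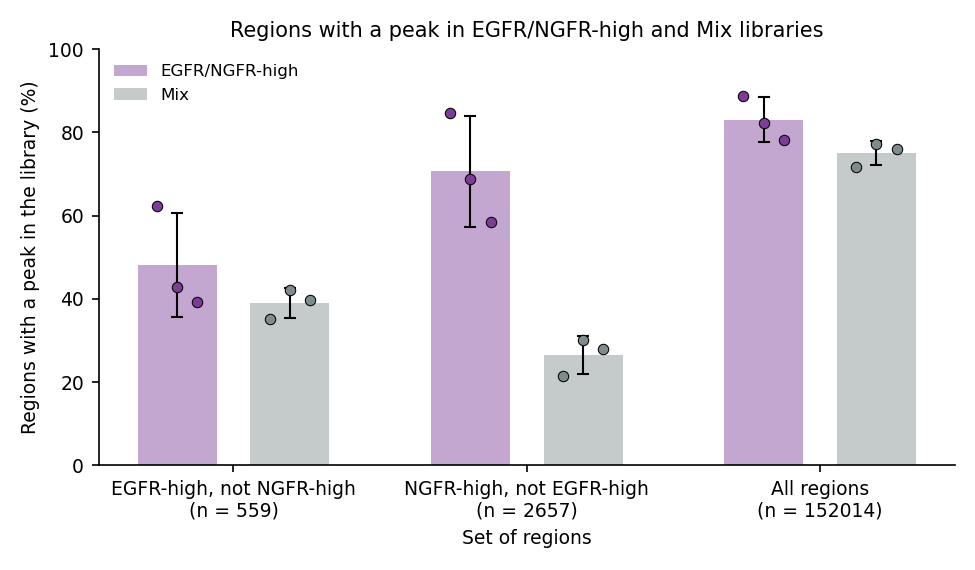
Percent of regions with a peak in each EGFR/NGFR-high and Mix library (points), with the mean (bar) and SD (line) of 3 libraries, for the 559 EGFR-high regions, the 2657 regions of the opposite pattern and all 152014 regions. The 2 sorts overlap for EGFR-high regions (39.2% to 62.4% against 35.1% to 42.2%) and are apart for the opposite set (58.4% to 84.7% against 21.4% to 30.2%).

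Single regions took many states. Of the 559, 442 (79.1%) had a peak in some EGFR/NGFR-high library and 321 (57.4%) in some Mix library, against 95.5% and 86.7% of all regions. In the opposite set it was 93.2% and 45.3%. In 73 regions (13.1%) neither sort had one, against 3.46% of the opposite set, so these had peaks in EGFR-high libraries only. Over all regions the share was 0.576%, but most regions could not lack both, since a region was kept for peaks in at least 3 libraries. More EGFR/NGFR-high than Mix libraries had a peak in 239 regions (42.8%), and more Mix libraries in 161 (28.8%), against 23.6% and 12% of all regions and 71.5% and 11.6% of the opposite set. The clearest pattern of each kind was rarer. A peak in 3 EGFR/NGFR-high and 0 Mix libraries was found in 35 regions (6.26%), against 4.8% of all regions and 26.5% of the opposite set. The reverse, 0 EGFR/NGFR-high and 3 Mix libraries, was found in 10 (1.79%), against 0.845% of all regions. All 3 libraries of both sorts had a peak in 24 (4.29%), against 56.9% of all regions and 4.1% of the opposite set. Without EGFR/NGFR-high replicate 1, 121 regions (21.6%) had no peak in either sort, against 9.79% of the opposite set. The share of libraries with a peak was then higher for EGFR/NGFR-high in 210 regions (37.6%) and for Mix in 192 (34.3%), against 23.8% and 16.3% of all regions. Both remaining EGFR/NGFR-high and 0 Mix libraries had a peak in 39 (6.98%, against 5.17% of all regions). Neither of them but all 3 Mix libraries had one in 23 (4.11%, against 1.69%).

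**Figure D3:**
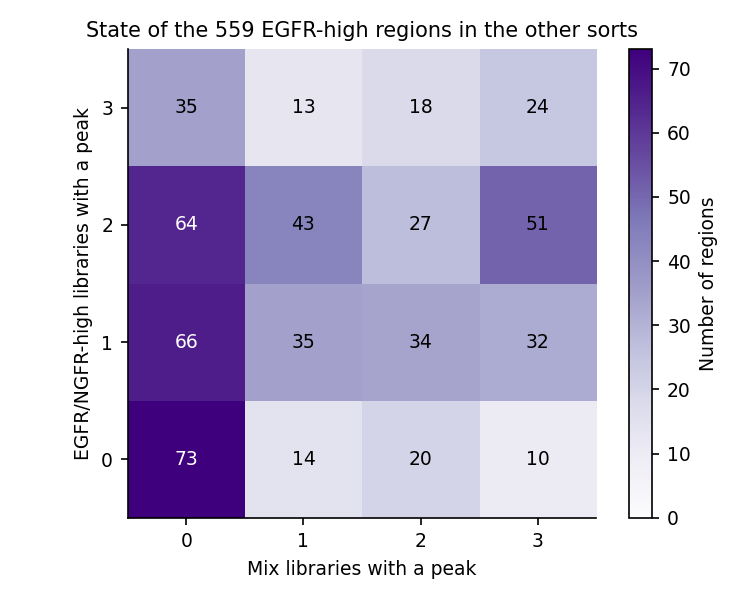
Number of the 559 EGFR-high regions by how many EGFR/NGFR-high libraries (vertical axis) and how many Mix libraries (horizontal axis) had a peak. The largest cell is 73 regions with none in either sort; 35 regions had 3 and 0, 10 had 0 and 3, and 24 had 3 and 3.

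On average, regions of higher EGFR-high fold enrichment had a peak in more EGFR/NGFR-high libraries. The regions were put in 4 bins of 139 or 140 by EGFR-high fold enrichment. In the lowest bin (3.23 to 4.31), 49.3%, 40.0% and 30.0% had a peak in the 3 EGFR/NGFR-high libraries, and 34.3%, 45.0% and 37.9% in the 3 Mix libraries. In the highest bin (5.37 to 16.0) the shares were 76.4%, 49.3% and 50.7% against 34.3%, 37.9% and 38.6%. In the second bin (4.32 to 4.79) they were 55.7%, 37.1% and 32.9% against 36.4%, 48.6% and 45.7%. In the third bin (4.79 to 5.37) they were 68.3%, 44.6% and 43.2% against 35.3%, 37.4% and 36.7%. Every EGFR/NGFR-high library was thus above every Mix library in the upper 2 bins, but not in the lower 2. From the lowest to the highest bin, a peak in 3 against 0 libraries was found in 2.86%, 1.43%, 7.91% and 12.9% of regions. This was 4 regions in the lowest bin and 18 in the highest. Among all regions with a peak in the 3 EGFR-high libraries and fold enrichments in the same ranges, whatever their NGFR-high calls, such a pattern was found in 8.74%, 7.58%, 6.58% and 2.17%. In these regions every EGFR/NGFR-high library was above every Mix library in all 4 ranges, with 68.2% to 86.1% against 55.1% to 66.4% in the lowest and 97.6% to 99.6% against 92.9% to 94.7% in the highest. The 2 sorts thus also differed in regions at large. There the share with 3 against 0 libraries fell with fold enrichment. Nearly all of the 47482 regions in the highest range had peaks in both sorts, so few could have 3 against 0. Fold enrichment was not matched within a range, and few EGFR-high regions exceeded 6.64. The rise in EGFR-high regions and the fall at large can therefore not be set against each other. The bins were made from the EGFR-high values, and this pattern is given without a test.

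In a limma fit across 151138 regions on log2(fold enrichment + 1), 7.36% of all regions were higher and 2.13% lower in EGFR/NGFR-high than in Mix libraries, at an adjusted p under 0.05 (Benjamini-Hochberg). Of the 486 EGFR-high regions in the fit, 35 were higher (7.2%) and 11 lower (2.26%), shares close to those of all regions in this fit. The 73 regions with no peak in either sort could not enter. Peaks in 3 EGFR/NGFR-high and 0 Mix libraries were found in as many EGFR-high regions, 35, and the reverse in 10. A sort listed at 0 in all 3 libraries has no spread in this fit. The limma calls thus largely restate the peak calls and are not separate support for them. In the opposite set 707 of 2565 were higher and 11 lower. The median log2 difference, in which a library without a peak counts as 0, was 0.22 over EGFR-high regions, 0.07 over all regions and 1.51 over the opposite set. Without EGFR/NGFR-high replicate 1 these medians were −0.12, 0.0024 and 1.23. That of EGFR-high regions was −0.29 over the 287 with a peak in at least 3 of the 6 libraries, where all regions had 0.06 and the opposite set 1.70. The shares also moved with the libraries. Without EGFR/NGFR-high replicate 1 limma called 39 EGFR-high regions higher (8.90%, against 6.60% of all regions) and 24 lower (5.48%, against 3.02%). Without replicate 2 it called 61 higher (12.6%, against 7.88%) and 20 lower (4.14%, against 1.92%). Without replicate 3 it called 69 higher (14.6%, against 9.79%) and 21 lower (4.46%, against 2.14%). In each of these 3 fits the shares of EGFR-high regions were thus above those of all regions. With the replicate number as a block limma called 0 regions of any kind. At an unadjusted p under 0.05 that fit had 39 EGFR-high regions higher (8.02%, against 13.6% of all regions) and 34 lower (7%, against 6.28%).

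The 5 regions with the largest rise lay near SOX5, COL6A2 and PAX5 and in MYO1E and PPT1. Each had a peak in 3 EGFR/NGFR-high libraries and was listed at 0 in all Mix libraries, so no fold is given. Near SOX5, a transcription factor of the SOX family, the region chr12:24661627-24662117 had 5.55, 4.73 and 5.38 in EGFR-high and 8.93, 5.20 and 5.95 in EGFR/NGFR-high libraries (limma adjusted p = 0.0122). A collagen VI gene, COL6A2, had a region 32425 bases upstream at chr21:46065226-46065855. It had 4.27, 3.78 and 4.89 in EGFR-high and 7.14, 5.67 and 6.45 in EGFR/NGFR-high libraries (limma adjusted p = 0.0118). In an intron of PAX5, chr9:36946531-36947189 had 7.26, 5.20 and 6.36 against 6.55, 6.62 and 5.46 (limma adjusted p = 0.012). The SOX5 and COL6A2 regions had higher means in EGFR/NGFR-high than in EGFR-high libraries.

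The regions named here from those with the largest fall had peaks in EGFR-high and Mix libraries and were listed at 0 in all NGFR-high and EGFR/NGFR-high libraries. They lay in introns of FMN1, ANO4 and TTC23 and between genes on chromosome 21. The FMN1 region, chr15:32783756-32784226, was nearest to the start of GREM1, which encodes a secreted inhibitor of bone morphogenetic proteins. It had 3.41, 4.73 and 5.38 in EGFR-high and 5.82, 8.95 and 5.81 in Mix libraries (limma adjusted p = 0.0119). In an intron of ANO4, which encodes a membrane protein of the anoctamin family, chr12:100751647-100752022 had 4.27, 4.73 and 4.41 in EGFR-high and 4.03, 6.13 and 8.23 in Mix libraries (limma adjusted p = 0.0132). These regions were thus listed at 0 in both sorts named for NGFR. One called region had peaks in all 6 libraries of the fit. It lay 1242328 bases upstream of PCDH10, at chr4:131906801-131907242, with 3.87, 4.25 and 3.97 in EGFR/NGFR-high and 8.96, 9.43 and 8.23 in Mix libraries. This is a log2 difference of −0.97 ± 0.22 (SE, n = 3 each, limma adjusted p = 0.0337).

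EGFR-high regions were mostly distal. Of the 559, 337 (60.3%) lay in introns, 166 (29.7%) between genes, 34 (6.08%) in exons and 22 (3.94%) within 1000 bases of a gene start. Over all regions 10.7% lay at a start, and in the opposite set 3.99%. Within 2500 bases of a start it was 8.94% of EGFR-high regions, 16.8% of all regions and 9.3% of the opposite set. The median distance to the nearest protein-coding start was 71380 bases, against 42282.5 over all regions and 51580 in the opposite set. More than 500 kb separated 49 regions (8.78%) from any such start, against 5.41% of all regions. The regions just outside the rule were alike, with medians of 68670 bases for a peak in 3 EGFR-high and 1 NGFR-high library and 63579 for 2 and 0. Median GC content of the 200 bases around the summit was 43.5%, against 46.5% over all regions, and 22.2% of windows held no CpG, against 16.9% of all regions and 22.8% of the opposite set.

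Members were not spread evenly over the genome. Chromosome 8 held 63 (11.3%, with 5.33% of all regions), or 7.78 per 1000 regions, and chromosome 4 held 47, or 6.76 per 1000. Chromosome 19 held 5, or 1.27 per 1000, and chromosome 5 held 17, or 2.07 per 1000. The opposite set was densest on chromosome 5, with 248 regions, or 30.1 per 1000, and thinnest on chromosome 8, with 8.89 per 1000. The 2 patterns thus favoured different chromosomes.

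Signal at regions that every library shared was shifted the same way. Over regions with a peak in all 12 libraries, the median log2 fold enrichment of chromosome 4 relative to the genome was −0.09, −0.14 and −0.16 in EGFR-high and −0.26, −0.29 and −0.27 in NGFR-high libraries. On chromosome 8 it was 0.04, 0.04 and 0.00 in EGFR-high and −0.11, −0.08 and −0.04 in NGFR-high libraries. On chromosome 5 it was −0.09, −0.09 and −0.16 against 0.07, 0.00 and 0.04. The libraries of the 2 sorts did not overlap on any of these chromosomes. In the sorts not used by the rule, chromosome 4 had means of −0.21 in EGFR/NGFR-high and −0.26 in Mix libraries, chromosome 8 had −0.05 and 0.03, and chromosome 5 had 0.015 and −0.07.

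On these chromosomes the shifts ran along most or all of the length. In windows of 10 Mb with at least 100 regions, EGFR-high was above NGFR-high in 19 of 19 windows of chromosome 4 and 14 of 15 of chromosome 8. It was below in 18 of 18 windows of chromosome 5. Below was the more common sign, since EGFR-high was above in 117 of 297 such windows of the genome. Chromosomes 10, 17, 19, 20 and 22 were also below in every window. Chromosome 9 was split, with 6 windows above and 6 below. Across 23 chromosomes the density of EGFR-high regions went with the EGFR-high minus NGFR-high median (Pearson's r = 0.77, Spearman's rho = 0.67), given as a description since both come from the same peak lists. The density of the opposite set went the other way (r = −0.78, rho = −0.70). The part of these chromosome-wide differences in the choice of the regions was not tested. On chromosomes 4, 8 and 15 together, 132 EGFR-high regions had a peak in 63.6%, 40.9% and 43.2% of cases in EGFR/NGFR-high libraries, close to the 62.0%, 43.2% and 37.8% of the 426 on the other numbered chromosomes and X.

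**Figure D4:**
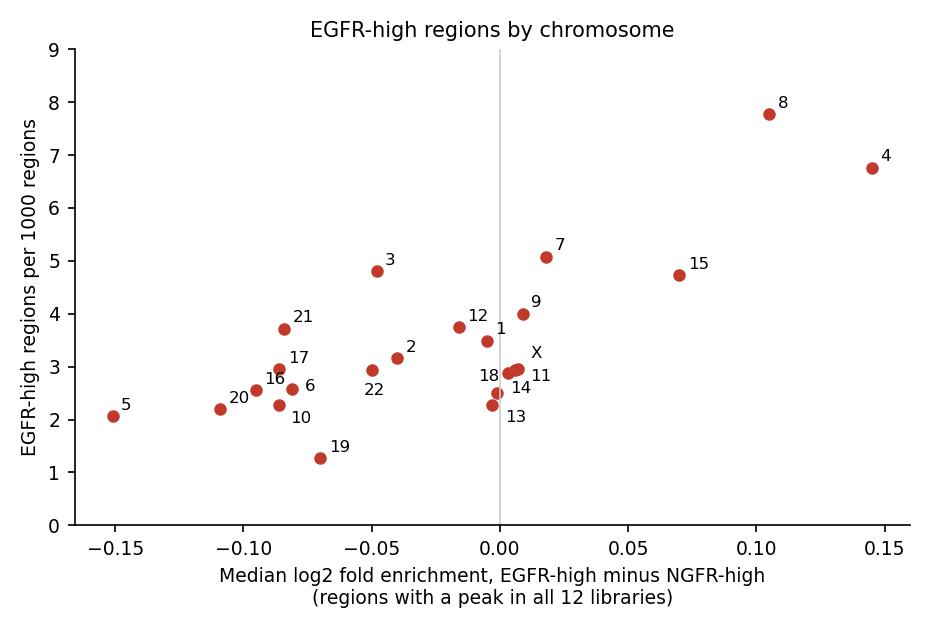
EGFR-high regions per 1000 regions (vertical axis) against the EGFR-high minus NGFR-high median log2 fold enrichment over regions with a peak in all 12 libraries (horizontal axis); each point is a chromosome. Chromosomes 8 (7.78) and 4 (6.76) stand high on the right and chromosome 5 (2.07) low on the left, while chromosome 3 (4.81) lies above its neighbours.

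Chromosome 3 was uneven. Between 60 and 80 Mb it held 39 EGFR-high regions among 3014, or 12.9 per 1000, and its other 9455 regions held 21, or 2.22 per 1000. In this stretch 10 regions had the opposite pattern. It was also dense in regions of any kind, with 1752 in the first 10 Mb and 1262 in the second, against a median of 497 over windows. From 70 to 80 Mb, 23 regions were EGFR-high and 1 was opposite. The EGFR-high minus NGFR-high median there was 0.06, and from 60 to 70 Mb it was −0.02. The stretch holds MITF, the master transcription factor of the melanocyte lineage, and 3 of the 6 genes with most EGFR-high regions nearest to their start.

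These 6 genes were CNTN3 and RYBP with 5 regions each, ROBO2 with 4, and NRG1, SLC26A7 and ST8SIA2 with 3 each, out of 509 nearest genes. CNTN3 encodes a contactin of neural cell adhesion, RYBP a subunit of a Polycomb complex and ROBO2 a receptor of axon guidance. The 5 regions near RYBP had mean EGFR-high fold enrichments between 3.69 and 4.84, and none had a peak in 3 Mix libraries. All 4 near ROBO2 lay inside the gene and had a peak in 1 or 2 Mix libraries. These 3 genes were nearest to many regions of any kind, 114 for CNTN3, 187 for RYBP and 114 for ROBO2, and none of those was of the opposite pattern. SLC26A7, an anion transporter gene, had 18 regions in all, of which 3 were EGFR-high. Regions within 100000 bases of each other formed 21 runs that held 44 of the 559.

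Gene lists chosen with the biology of the primed state in mind held few nearest genes. The 17 receptors and ligands of the ErbB family, to which EGFR belongs, were nearest to 4 EGFR-high regions (0.716%, against 0.262% of all regions). Of these, 3 belonged to NRG1 and 1 to NRG3, which encode neuregulins, ligands of receptors of this family. The 16 melanocytic genes were nearest to 2 (0.358%, against 0.25%), both nearest to MITF, 1 inside the gene and 1 beyond its end. The other lists lay below their share of all regions. Of 20 genes of the primed state 1 was nearest to a region, THBS1 (0.179%, against 0.248%), and of 16 neural crest genes 1, TWIST1 (0.179%, against 0.282%). TGF-beta genes had 1 of 19, BMP2 (0.179%, against 0.307%). AP-1 and YAP/TEAD genes had 0 of 12 each, against 0.106% and 0.104% of all regions. So few regions can be read 1 by 1 only.

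The THBS1 region, chr15:39621968-39622409, lay in an intron of FSIP1, 41202 bases from the start of THBS1, which encodes the matrix protein thrombospondin. It had 8.54, 7.56 and 4.41 in EGFR-high, 6.84, 4.25 and 5.46 in EGFR/NGFR-high and no peak in Mix libraries (limma adjusted p = 0.0133). It was thus open in both sorts named for EGFR. In an intron of MITF, 5131 bases from its annotated start, chr3:69744369-69744725 had 5.98, 4.26 and 4.41 in EGFR-high libraries. There EGFR/NGFR-high replicate 1 had 4.76, Mix replicates 1 and 2 had 4.03 and 4.71, and the other 3 of these libraries were listed at 0. The NRG3 region, chr10:81826644-81826967, had 3.41, 4.73 and 4.89 in EGFR-high and 4.93, 5.18 and 6.29 in Mix libraries. Of the EGFR/NGFR-high libraries, replicates 1 and 3 had 3.27 and 4.47.

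The 3 regions nearest to NRG1 all lay in its introns. At chr8:32078700-32079059 fold enrichment was 5.12, 5.20 and 2.94 in EGFR-high libraries, EGFR/NGFR-high replicates 2 and 3 had 4.73 and 4.47, and Mix replicate 3 had 4.36. The neighbouring chr8:32073445-32073681 had 2.99, 3.78 and 2.94 in EGFR-high libraries and 3.57 in EGFR/NGFR-high replicate 1. The third, chr8:31779537-31779735, had 5.12, 3.31 and 2.94 and no peak in any other library. All 3 thus had at least 1 EGFR-high value near the lowest of any peak. The second MITF region, chr3:70021007-70021230, was as weak, with 2.99, 3.31 and 4.41, and EGFR/NGFR-high replicate 3 had 4.96. TWIST1 encodes a transcription factor of mesenchymal and neural crest cells. Its region, chr7:18846711-18847063, lay 270796 bases away in an intron of HDAC9, which encodes a histone deacetylase, with 5.98, 6.15 and 5.87 in EGFR-high libraries and 5.65 in EGFR/NGFR-high replicate 1. The BMP2 region, chr20:7272621-7272842, lay between genes, 505039 bases from the start of this bone morphogenetic protein gene. It had 3.84, 6.62 and 4.89 in EGFR-high libraries, 4.73 in EGFR/NGFR-high replicate 2, and 4.93 and 6.78 in Mix replicates 1 and 3.

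Windows of 200 bases around the summit were searched on both strands for the letters of 8 motifs. AP-1 letters, TGANTCA, were in 75 of 559 windows (13.4%), against 18.3% of all regions and 30.1% of the opposite set. TEAD letters, GGAATG, were in 14.7%, against 15.5% and 20.7%. SOX letters, ACAATG or ACAAAG, were in 25.8%, against 32.4% and 38.2%. These motifs were less frequent in EGFR-high than in opposite regions. The E-box bound by MITF, CACGTG or CATGTG, was in 22.0%, against 19.2% of all regions and 17.0% of the opposite set. RUNX letters, TGTGGT, were in 23.3%, against 20.8% and 21.1%. ETS letters, GGAAGT, were in 13.4%, forkhead letters, TGTTTAC, in 3.76% and TFAP2 letters, GCCNNNGGC, in 4.65%, against 15.1%, 2.79% and 8.77% of all regions. A match is a description of letters and not a bound site.

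The regions just outside the rule had shares near these for most motifs. AP-1 letters were in 14.8% of windows with a peak in 3 EGFR-high and 1 NGFR-high library and in 13.7% of those with 2 and 0. E-box letters were in 21.8% and 21.0%, and RUNX letters in 23.5% and 22.1%. SOX letters, with 29.1% and 27.5%, lay between EGFR-high and all regions, and TFAP2 letters had 5.08% and 5.97%.

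**Figure D5:**
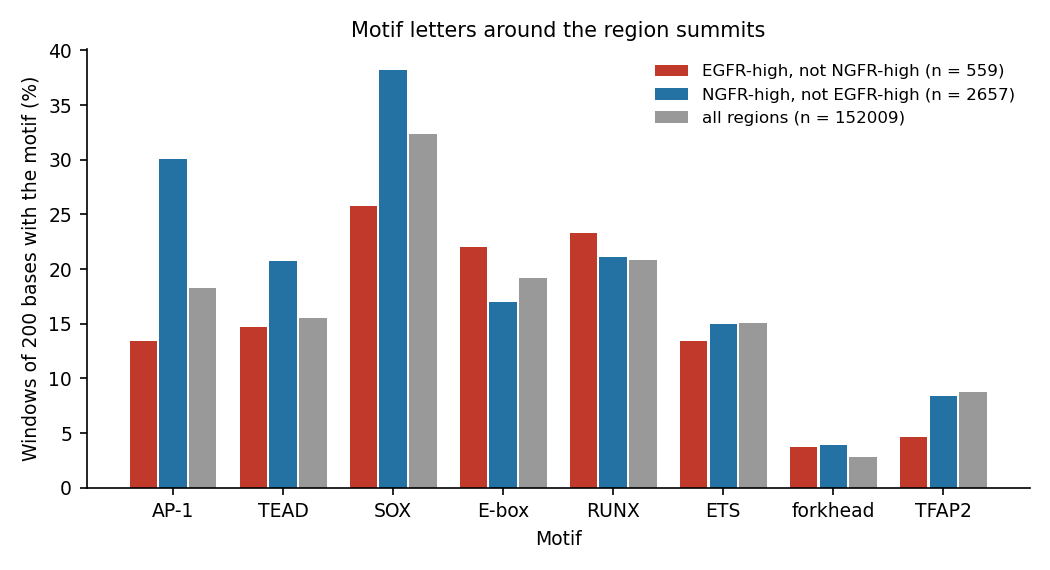
Percent of 200-base windows around the summit that hold each motif (horizontal axis), on either strand, in EGFR-high regions (n = 559), regions of the opposite pattern (n = 2657) and all regions with a full window (n = 152009). AP-1, TEAD and SOX letters are lower in EGFR-high than in opposite regions (13.4% against 30.1%, 14.7% against 20.7% and 25.8% against 38.2%), and E-box letters are higher (22.0% against 17.0%).

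Within the set some letters differed in share by the number of Mix libraries with a peak, calls that the rule did not read. The 117 regions with a peak in 3 Mix libraries held SOX letters in 39.3%, RUNX letters in 34.2% and E-box letters in 26.5% of windows. In the 238 with 0 Mix libraries the shares were 21.4%, 20.6% and 18.9%. The summit came from the library of highest fold enrichment among all 12. A Mix library could thus set it in the 117 but not in the 238. Over all regions the same split gave 33.5% against 28.6% for SOX, 20.9% against 20.4% for RUNX and 19.5% against 17.2% for E-box letters. TEAD (17.1% against 13.9%), ETS (16.2% against 12.6%) and TFAP2 letters (5.98% against 3.78%) were also more frequent in the 117. Over all regions these had 14.7% against 19.3%, 15.5% against 14.4% and 9.81% against 7.28%. AP-1 letters hardly differed by this split, with 13.7% and 14.7%, where all regions had 16.2% and 31.5%. The 117 were somewhat wider, with a median of 357 bases against 313.5, and richer in GC, 45.0% against 42.5%. By another split, AP-1 letters were in 16.3% of the 239 regions open in more EGFR/NGFR-high than Mix libraries and in 9.94% of the 161 open in more Mix libraries. Over all regions that split gave 28.4% and 10.2%. Without EGFR/NGFR-high replicate 1 it gave 18.1% and 10.4% in EGFR-high regions and 27.4% and 10.8% over all. The differences between these small sets were not tested.

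RNA was read in a single-cell experiment on untreated WM989 cells, in which the authors labelled each cell primed or drug-susceptible. These cells had been sorted as primed or mixed and grown for several divisions, so they are not the cells of the chromatin sorts. UMI counts were summed by state and expressed as CPM, that is, relative to the total of the state, with no test. The authors' cell labels divide the cells into r1 and r2, each from 4 wells of the chip. Both are parts of 1 deposited sample, and the sources used here do not say whether they came from separate cultures, so they may be technical repeats. Of the 509 nearest genes, 489 were in the table once and 236 reached 10 CPM in either state. The median log2 ratio of primed to drug-susceptible cells, with 0.5 CPM added, was 0.02, and over genes nearest to any region it was also 0.02. At least a 2-fold higher sum, with the same sign in both replicates, was seen for 36 of the 236 (15.3%) and a 2-fold lower one for 27 (11.4%), against 10.5% and 6.11% of genes nearest to any region. In the opposite set it was 18.2% and 7.81%.

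The genes of named regions moved in both directions. NRG1 had 27.0 CPM in primed and 0.729 in drug-susceptible cells (exact Poisson 95% intervals 26.3 to 27.7 and 0.66 to 0.803, counting error only), and NRG3 had 0.557 and 16.7. The 2 neuregulin genes thus stood at opposite ends. COL6A2 had 809 and 16.6, and THBS1 42.9 and 3.76. MITF had 45.7 and 313, and ROBO2 2.69 and 18.6. In r1 and r2 alone all 6 ratios kept their direction, with log2 ratios of 4.05 and 4.91 for NRG1 and −4.02 and −3.63 for NRG3. RYBP hardly differed, with 269 and 232, and CNTN3 had no UMI in either state.

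Primed cells were also split by their UMIs, into 1225 cells with EGFR and without NGFR and 267 with NGFR and without EGFR. The split uses droplet counts, so cells that lack a UMI may express the gene, and free RNA may give a UMI to cells that do not. EGFR UMIs were in 78.1% and 78.3% of primed cells of r1 and r2 and in 15.9% and 12.2% of drug-susceptible ones. NGFR UMIs were in 40.0% and 51.2% against 1.43% and 4.05%. Median depth was 50467 and 82315 UMIs in primed and 53164.5 and 52393.5 in drug-susceptible cells. The EGFR and NGFR cells are therefore classes of UMI detection and not cell types. They also lay in different clusters of the authors. Of the EGFR cells 63.8% and 61.7% (r1 and r2) were in cluster 2 and 19.3% and 13.4% in cluster 8, and of the NGFR cells 38.0% and 26.6% were in cluster 2 and 38.6% and 45.9% in cluster 8. Of the 219 nearest genes at 10 CPM or more, 140 (63.9%) were higher in the EGFR cells. Over genes nearest to any region it was 54.8%, and in the opposite set 57.5%. The median log2 ratio was 0.07, against 0.02 and 0.03. That of the 219 genes was 0.03 in r1 and 0.10 in r2. With both replicates summed, 1 gene was at least 2-fold higher in the EGFR cells with the same sign in each replicate. This is 0.457%, against 0.276% of genes nearest to any region, and 0 genes were 2-fold lower, against 0.21%. The gene was HAS2, a hyaluronan synthase gene named after its value was seen, with 12.9 and 5.87 CPM. Its log2 ratios were 0.23 in r1 and 1.48 in r2. NRG1 had 30.6 CPM in the EGFR and 15.6 in the NGFR cells, with log2 ratios of 0.41 in r1 and 1.48 in r2. COL6A2 had 928 and 637, and its log2 ratios were 0.54 and 0.52. The cells differed in depth, with medians of 48581 and 80766.5 UMIs in r1 and r2 for the EGFR cells and 44220.5 and 49078 for the NGFR cells, and the part of depth and of the clusters in the ratios was not tested.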

How the data were processed

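ATAC-seq was measured in 12 libraries of 4 sorts of WM989 cells. The authors aligned reads to hg38 with Bowtie2 2.3.4.1, filtered alignments with SAMtools 1.1, removed duplicates with picard and called peaks in each library with MACS2 2.1.1.20160309. In the deposited peak lists, fold enrichment is a ratio of the peak over the local background, and the −log10 of each peak's q-value served for an alternative. Read totals are not in these lists, so depth is unknown and the number of peaks stands in for it. The single-cell table holds UMI counts deposited by the authors, who made it with Cell Ranger. Per the study's methods they removed cells with few genes, cells with many genes as likely doublets, and cells with a high mitochondrial share. The cells left here have 4001 to 9994 genes, and no doublet caller was run here. The other single-cell experiments and the coverage behind the peaks were not used here.

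Repeated intervals of a library were joined, peaks sharing at least 1 base were merged, and the highest fold enrichment of a region was taken. The members and gene lists were chosen with earlier results of these data known. EGFR/NGFR-high and Mix libraries were compared with limma 3.58.1 (trend, R 4.3.3) on log2(fold enrichment + 1), with Benjamini-Hochberg adjustment over all regions with a peak in at least 1 of the 6 libraries, and by an exact two-sided permutation test of the share of members with a peak. Libraries of the same number did not deviate together (r of 0.00238 to 0.0524), so the number was not used in the limma fit reported. Genes and starts come from GENCODE on hg38, and all peak contigs were in that genome. Of the 152014 regions, 4 ended beyond the end of their contig. One member lay outside the numbered chromosomes and X.

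Regions were named by a rule: the 10 of highest mean EGFR-high fold enrichment, up to 5 in each direction among those limma called, and those nearest to list genes. The PCDH10 region, the FMO1 group and SLC26A7 details were added after their values were seen. One region and 1 marker gene that this rule or the marker list would name are not reported here. Genes were named where they were nearest to 3 or more members. CPM in the text was computed here from summed UMI counts. The alternatives tried were other peak thresholds, overlaps, regions merged from 6 libraries, pseudocounts, filters, scalings, left-out libraries, motif windows, gene assignments and promoter widths.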

Additional observations from a re-analysis of the deposited data

How the results depend on the processing

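The number of EGFR-high regions was 559. It was 264 with −log10 q of at least 5, and leaving out 1 of the 6 libraries of the rule gave 852 to 1406. The top 140000 or 50000 peaks, 50% cover, or merging those 6 libraries alone kept it within 1.5 times. A similar count need not mean the same regions. With 50% cover 705 regions met the rule, and 323 of them were among the 559, which is 45.8% and 57.8%. The difference in the share with a peak, 9.12 points, reversed to −2.01 in the members of the top 140000 peaks, to −11.6 in those of the top 50000, none of them among the 559, and to −4.0 for the 559 read with the top 140000 (the last 2 added after seeing the data). It kept its sign with −log10 q of at least 5 (7.45) and with 50% cover (8.7). It was 9.97 in regions merged from the 6 libraries of the rule (also added), and 1.97 to 13.6 with 1 library left out, and no setting passed the threshold, which 3 against 3 cannot reach. Paired by replicate number (replicate block) it stayed 9.12 (exact sign-flip p = 0.75). limma called 35 regions higher and 11 lower. The replicate block gave 0 and 0, and with −log10 q in place of fold enrichment 16 were higher (3.29%, against 6.54% of all regions) and 8 lower (1.65%, against 0.663%). Leaving out 1 library gave 35 to 69 higher and 8 to 24 lower. Without Mix replicate 1, 2 or 3 the shares higher were 7.23%, 8.12% and 7.29%, against 6.54%, 7.18% and 7.49% of all regions. The shares lower were then 1.65%, 1.88% and 1.88%, against 0.92%, 1.06% and 1.33%. The median log2 difference of 0.22 reversed to −0.288 over regions with a peak in at least 3 of the 6 libraries, which drops those open in few libraries, and to −0.119 without EGFR/NGFR-high replicate 1, with a range of −0.119 to 0.495 over left-out libraries. The median RNA log2 ratio of primed to drug-susceptible cells, 0.016, was −0.021 with the nearest start of any gene, a setting that is void since 36.6% of those genes were in the table. The cause of these changes was not tested. Motif windows of 100 or 400 bases moved every motif share with the window's length. Libraries carry no read totals here, so a region without a peak cannot be told from one with too few reads.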

Other observations

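Among the 236 nearest genes at 10 CPM or more in a state, the largest ratios of primed to drug-susceptible cells were those of COL6A2 (log2 ratio 5.56), NRG1 (4.48) and NTM (4.11), and the lowest were those of NRG3 (−4.03) and FRMD4B (−3.40). These genes were picked after their values were seen. In single-cell RNA the median log2 ratio of EGFR to NGFR primed cells was 0.105 over 287 genes of chromosome 4 and 0.109 over 252 of chromosome 15, above the other 21 chromosomes (−0.054 to 0.084), and it was 0.061 on chromosome 8 and 0.062 on chromosome 5. This order did not hold in r1, where chromosome 5 had 0.092, chromosome 4 0.076, chromosome 2 0.058 and chromosome 15 0.037. In r2 these 4 had 0.028, 0.136, 0.10 and 0.162. Regions had a neighbouring region within 10000 bases in 69.9% of EGFR-high regions, 75.9% of the opposite set and 77.8% of all regions.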
